A study of Mus musculus with 64 samples.

Results

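Small RNA was compared between livers of humanized males (HUMM) and wild type males (WTM) in 11 of the 64 libraries of the series. Members were the libraries that the column names of the liver small RNA table assign to HUMM (6) or WTM (5), and the labels' sex, genotype and tissue match those names. All animals were 129S6/SvEvTac mice, and every group had received inorganic arsenic (iAs) at 400 ppb in drinking water for 4 weeks, so no unexposed group enters any comparison. HUMM carry the human ortholog of AS3MT, the enzyme that methylates arsenic, and WTM carry the mouse gene. The humanized females (HUMF, 5 libraries) and wild type females (WTF, 5 libraries) of the same table had the same exposure and served to share the estimate of spread and to test genotype by sex. The labels give the animals' ages nowhere and do not say that libraries were pooled. They also do not say that the replicates came from separate cages or litters, so p-values measure the spread between these libraries.

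A microRNA (miRNA) is a short RNA cut from a hairpin precursor. It guides Argonaute proteins to messenger RNAs, mostly through its seed, the bases just after its 5′ end, and lowers the stability or translation of those messages. In hepatocytes miR-122 is by far the most abundant miRNA and supports lipid and cholesterol metabolism, and miR-34a is a target gene of the p53 stress response. A miRNA cut with a shifted 5′ start has a different seed and can therefore pair with other messages.

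The sequences below are of miRNAs described in the paragraphs that follow. They are 2 pairs of miRNAs that share a seed but whose differences between HUMM and WTM had opposite signs, the miRNA with the smallest p, and 3 forms with a shifted start beside their annotated forms. Mature sequences are RefSeq's, with the GRCm38.p6 tables, written 5′ to 3′. Capitals mark the seed, bases 2 to 8. The number after the sign in a shifted name was read as bases downstream of the annotated start, which the sources used here do not define, and its capitals mark bases 2 to 8 counted from that shifted start.
miR-34a-5p: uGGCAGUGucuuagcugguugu
miR-449a-5p: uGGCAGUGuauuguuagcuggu
miR-192-5p: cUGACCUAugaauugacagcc
miR-215-5p: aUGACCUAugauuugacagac
miR-298-5p: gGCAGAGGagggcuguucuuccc
let-7f-2-5p: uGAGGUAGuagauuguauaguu
let-7f-2-5p_+_2: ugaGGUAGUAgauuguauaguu
let-7i-5p: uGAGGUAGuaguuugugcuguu
let-7i-5p_+_3: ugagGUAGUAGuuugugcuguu
miR-592-5p: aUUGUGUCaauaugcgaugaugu
miR-592-5p_+_1: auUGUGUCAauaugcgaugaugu

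The libraries held 5819451 to 12977190 listed reads in HUMM and 6622500 to 14660700 in WTM, and they listed 725 to 933 and 762 to 994 features above 0. Read numbers here take the lowest listed value of a library as 10 reads, which no source used here states. A value of 0 means below that lowest value, a floor of 8.43 to 19.8 in signal in HUMM and 8.65 to 16.4 in WTM. The defining hepatocyte miRNAs were all present: miR-122-5p alone took 42.1 to 46.6% of the signal in HUMM and 43.9 to 52.6% in WTM. WTM replicate 1 stood apart in miRNAs of other tissues. Its summed smooth muscle markers (miR-143 and miR-145, 4 of 4 forms listed) were 158483, against 18818 to 40075 in the other WTM libraries and 14021 to 57134 in HUMM. Its fibroblast and stellate cell markers (miR-199 and miR-214, 6 of 6 listed) were 42317 against at most 22220 in the other WTM libraries, its striated muscle markers (3 of 4 listed, miR-1a-1-5p at 0 in every male library) 2580 against at most 665, and its epithelial markers (miR-200 family, 6 of 7 listed, miR-141-5p at 0) 18154 against at most 6091. Of the pancreas markers 2 of 5 forms were listed, miR-375-3p and miR-217-5p, and those of miR-216a and miR-216b were at 0 in every male library. Their sum was 1025 in WTM replicate 1, against at most 686 in the other WTM libraries and at most 939 in HUMM. Values without WTM replicate 1 are given where it moved a result most. In liver mRNA from 3 males a group, As3mt (ENSMUSG00000003559) stood at 0, 2.00 and 1.04 in HUMM and at 4569, 5796 and 2624 in WTM, which matches the labels. Borcs7, the gene next to As3mt, also differed, at 15.1, 13.0 and 14.5 in HUMM and 641, 745 and 620 in WTM, so that the genotypes differ in more than As3mt. This is no check of the small RNA libraries themselves.

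The main question was which liver miRNAs differ between humanized and wild type males under the same exposure. The deposited signal, normalized by the authors, was compared as log2 of the signal plus 1 with limma, with the run as a covariate. The run is only told by the form of the library names, which splits HUMM into 3 and 3 and WTM into 2 and 3. Libraries whose names start with a tag (HUMM replicates 1, 2 and 3 and WTM replicates 1 and 2) are called the first run here. Those whose names start with the group are called the second. The labels give no order in time. No feature passed. Of 837 features with a mean signal of at least 10, 0 (0%) fell under 0.05 once limma's p-values were adjusted by the Benjamini-Hochberg method, and the smallest adjusted p was 0.635. At an unadjusted p under 0.05 there were 46 (5.5%), where 41.85 would fall by chance under the test's assumptions, 10 of them higher and 36 lower in HUMM. The groups shared no range for 1 feature (0.119%), miR-30d-3p, named after its values were seen, and for 0 features with HUMM higher. miR-30d-3p, the passenger strand of a miRNA of the miR-30 family, had 176, 218 and 228.5 as its lowest, median and highest signal in HUMM and stood at 264, 228.8, 243, 280 and 240 in WTM, a difference of -0.24 (SE 0.11) and an adjusted p of 0.847 by limma. The difference was above 0 for 376 features and below 0 for 461, with a median of -0.03. Without WTM replicate 1 the count at an unadjusted p under 0.05 was 17 (2.03%), and without WTM replicate 2 it was 66.

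**Figure D1:**
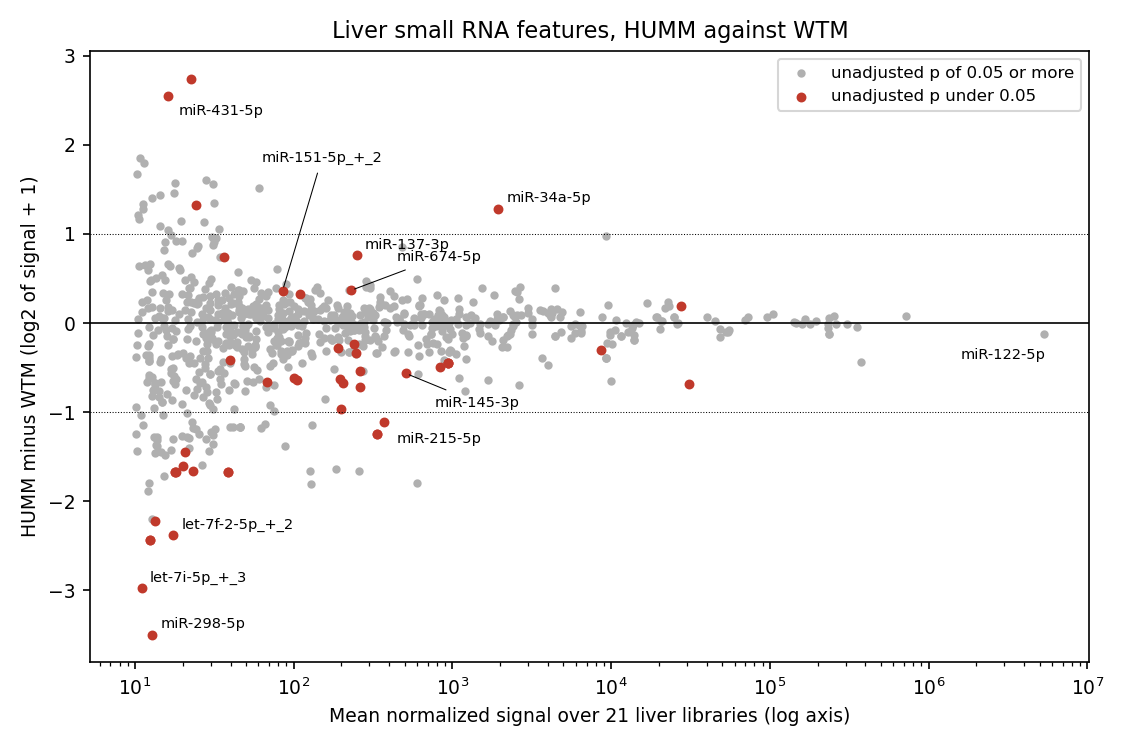
Each point is 1 of 837 features, with its mean normalized signal over 21 liver libraries (log axis) against the HUMM minus WTM difference in log2 of signal plus 1; red points have an unadjusted limma p under 0.05 and dotted lines mark a doubling or halving. Differences beyond those lines sit mostly at low signal, and no point passed the adjusted threshold.

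How closely a difference was bounded depended on the signal. The 95% interval lay within a doubling or halving for 55 of the 58 most abundant features tested, where it reached a median of 0.31 to either side, and for 146 of the 438 least abundant, where it reached a median of 1.46. Over all features it did so for 470 of 837. A fitted difference of more than 1 in size was found for 90 features, and 86 of these were listed at 0 in at least 1 male library. The 4 listed in every male library were miR-34a-5p, miR-215-5p and the 2 near-identical copies of miR-1a-3p, a striated muscle miRNA.

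The most abundant miRNAs showed small differences. miR-122-5p had a lowest, median and highest signal of 4341239, 4989548 and 5652355 in HUMM, and 4563011, 5449848, 7247084, 5303887 and 4921546 in WTM replicates 1 to 5. The groups overlapped, and the difference was -0.13 with a 95% interval of -0.41 to 0.15. Its passenger strand, miR-122-3p, differed by 0.13 (interval -0.28 to 0.54), with 1 HUMM library at 8037 and the other HUMM libraries at 4269 or less. miR-192-5p, a p53-responsive miRNA abundant in hepatocytes, differed by 0.08 (-0.16 to 0.31), and miR-22-3p by -0.05 (-0.31 to 0.21). For let-7f-2-5p, of the let-7 family known for restraining growth genes, the difference was -0.02 (-0.27 to 0.24). miR-26a and let-7f are each listed as 2 copies whose reads cannot be told apart, so their values are uncertain between copies. miR-30a-5p, miR-26b-5p and miR-26a-2-5p lay at 0.08, 0.05 and -0.12.

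miR-21-5p, which is widely raised in injury and proliferation, had the widest interval of the 10 most abundant forms. Its signal was 217866, 282559 and 261507 in the first run's HUMM libraries and 533841, 540961 and 477746 in the second run's. In WTM it was 294441 and 250264 in the first run, and 1023357, 647831 and 772780 in the second. The second run was thus higher in both groups, and within it the 3 HUMM libraries were all below the 3 WTM libraries, whereas the first run's groups overlapped. The difference was -0.44 (-0.89 to 0.02) over both runs, -0.10 in the first run alone and -0.63 in the second alone. It is given as a description, with no test.

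**Figure D2:**
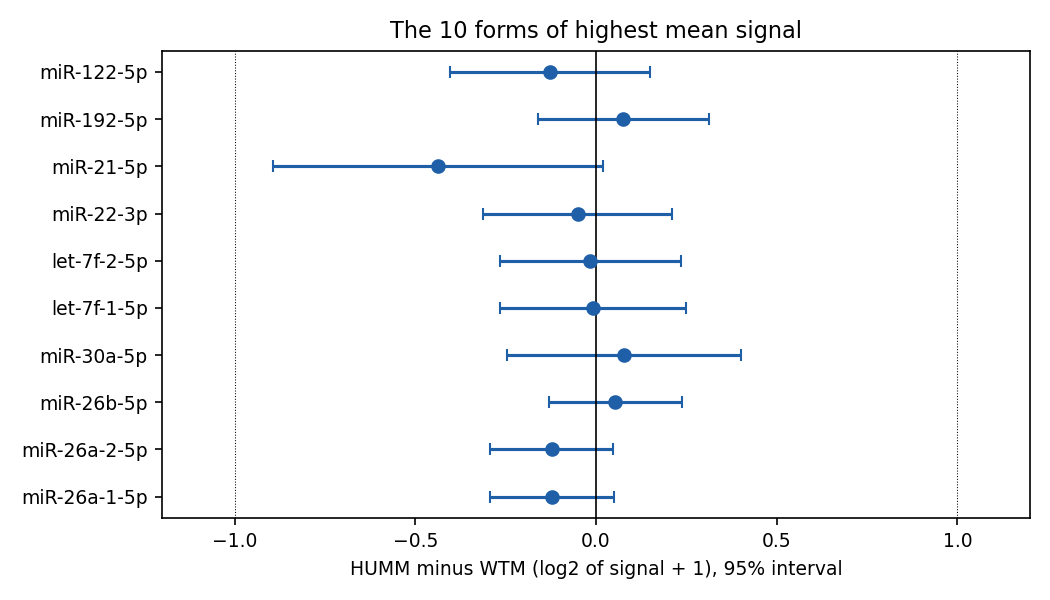
The HUMM minus WTM difference in log2 of signal plus 1 (points) and its 95% interval from limma (bars) for the 10 forms of highest mean signal; dotted lines mark a doubling or halving. All 10 intervals include 0 and stay inside those lines, and that of miR-21-5p, from -0.89 to 0.02, is the widest.

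miR-34a-5p had the smallest p of the features with a higher signal in HUMM. Its signal in HUMM was 1141 at the lowest, 2637 at the median and 5376 at the highest. In WTM replicates 1 to 5 it was 541, 1131, 1577, 2360 and 816. HUMM replicates 3, 5 and 4 (5376, 4757 and 3160) lay above every WTM library, and the other 3 HUMM libraries overlapped with WTM. The difference was 1.28 (SE 0.43, interval 0.39 to 2.18), a 2.44-fold ratio on the log2 of signal plus 1 scale, with an unadjusted p of 0.00714 and an adjusted p of 0.847 by limma. It was 1.58 within the first run, 1.06 within the second, and 1.06 without WTM replicate 1, the lowest library. On the authors' rlog table, which was corrected for batch, it was 0.89.

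miR-449a-5p, which shares the seed of miR-34a-5p shown above, had a difference of the opposite sign at a far lower signal. Its HUMM libraries ran from 0 through a median of 16.2 to 29.8, and its WTM libraries stood at 34.1, 38.1, 34.7, 18.2 and 37.8. WTM replicate 4 was the only WTM library within the range of HUMM. The difference was -1.45 (SE 0.60), with an unadjusted p of 0.0249 and an adjusted p of 0.847 by limma. It was -2.53 within the first run and -0.52 within the second, -0.81 with a pseudocount of 10 and -0.19 on the rlog table. miR-34c-5p, the third tested member of the family, had a median of 91.0 in HUMM and 122 in WTM and a difference of -0.22. The 3 tested members thus had differences from -1.45 to 1.28, and 0 of 3 were called. Without HUMM replicate 3, which was listed at 0, the difference of miR-449a-5p was -0.79.

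miR-192-5p and miR-215-5p share the other seed shown. miR-215-5p is encoded apart from miR-192 and is typical of intestine. Its HUMM libraries ran from 108 through 276 to 440, and its WTM libraries stood at 1975, 534, 233, 322 and 251. WTM replicate 1 was far above the next WTM library, both of them lay above every HUMM library, and the other 3 lay within the HUMM range. The difference was -1.11 (SE 0.40, unadjusted p 0.0125, adjusted p 0.847 by limma), and it was -0.73 without WTM replicate 1, whose smooth muscle and epithelial markers were also high. The part of those other tissues in this value was not tested.

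miR-298-5p, an miRNA of the imprinted Gnas region, had the smallest p of all. It was listed at 0 in 5 of 6 HUMM libraries and at 20.3 in HUMM replicate 5. In WTM replicates 1 to 5 it was listed at 29.6, 15.8, 25.4, 10.4 and 18.1. The floor under which a value is listed as 0 was 16.6 and 19.8 in HUMM replicates 1 and 3, within the range of the WTM values. It was 8.43, 8.57 and 8.98 in HUMM replicates 2, 4 and 6, below every WTM value. The fitted difference was -3.50 (SE 0.87, unadjusted p 0.000758, adjusted p 0.635 by limma), but it depends on the pseudocount and is no measure of size: it was -1.26 with a pseudocount of 10 and -0.22 on the rlog table. Without HUMM replicate 5 it was the 1 feature called, with an adjusted p of 0.0217 by limma. Over the other alternatives that tested it the adjusted p ran from 0.419 to 1.00.

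Shifted forms of let-7 followed in the lower direction, again at the floor. let-7i-5p_+_3 was listed at 0 in 5 of 6 HUMM libraries, at 16.02 in HUMM replicate 2, and at 25.1, 31.6, 9.39, 19.9 and 0 in WTM. let-7f-2-5p_+_2 was listed at 0 in 3 of 6 HUMM libraries and at 14.4 to 22.76 in the other 3, against 15.6 to 36.1 in WTM. Their fitted differences were -2.98 (SE 0.91) and -2.38 (SE 0.77), both with an adjusted p of 0.847 by limma. These sizes too depend on the pseudocount, being -1.12 and -0.94 with a pseudocount of 10 and -0.19 and -0.17 on the rlog table. The annotated let-7i-5p and let-7f-2-5p, which are far more abundant, differed by -0.08 and -0.02.

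miR-145-3p, from a smooth muscle miRNA, completed the 5 of smallest p in the lower direction. Its HUMM libraries ran from 317 through 383 to 813, and its WTM libraries stood at 1181, 630, 461, 512 and 501. Of the HUMM libraries, 4 lay below every WTM library. The difference was -0.56 (SE 0.20, adjusted p 0.847 by limma) and was -0.38 without WTM replicate 1. Smooth muscle markers moved with this library, as given above.

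Of the other features of smallest p in the higher direction, miR-137-3p is best known from neurons. Its HUMM libraries ran from 79.2 through 246 to 401, and its WTM libraries stood at 56.5, 104, 272, 151 and 161, with overlap. The difference was 0.76 (SE 0.28). miR-674-5p ran from 164 through 197 to 266 in HUMM and stood at 159, 185, 160, 135 and 166 in WTM. All HUMM libraries but the lowest lay above every WTM library, and the difference was 0.36 (SE 0.13), with 0.11 in the first run and 0.59 in the second. miR-431-5p, of the imprinted Dlk1-Dio3 cluster, was listed in all 6 HUMM libraries, from 10.3 through 24.4 to 53.96, and in WTM at 44.9, 0, 26.3, 0 and 0. miR-151-5p_+_2 ran from 63.4 through 89.6 to 120 in HUMM and stood at 51.2, 53.9, 93.9, 99.5 and 85.4 in WTM, which overlap. Each of these 4 had an adjusted p of 0.847 by limma. On the rlog table the 10 features of smallest p had smaller differences, from -0.63 for miR-215-5p to 0.89 for miR-34a-5p.

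**Figure D3:**
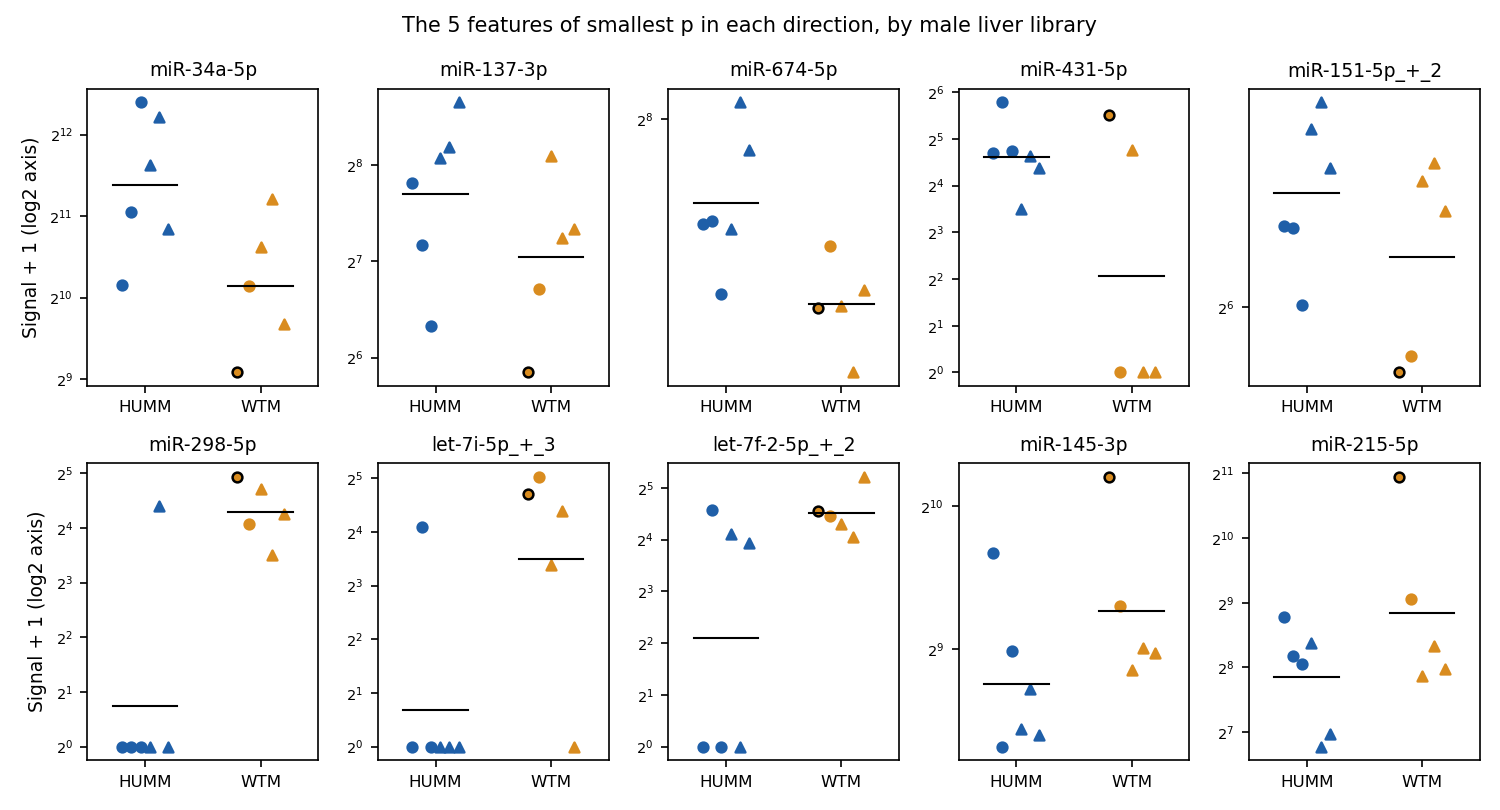
Normalized signal plus 1 (log2 axis) in each male liver library for the 5 features of smallest p with HUMM higher (top) and lower (bottom); circles are first-run and triangles second-run libraries, lines are means on the log2 scale, and WTM replicate 1 is outlined in black. The groups overlap in every panel, and the lowest points of miR-431-5p, miR-298-5p and both let-7 forms are libraries listed at 0.

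Known groups of miRNAs were then described by their members' differences, next to all 355 annotated species tested, with copies merged, of which 174 were above 0 and 181 below, with a median of -0.01. Of 17 lists, 0 held a called member. For 23 hepatocyte miRNAs, 11 were above 0 and 12 below, with a median of -0.03, which was 0.12 in the first run, -0.12 in the second and -0.10 without WTM replicate 1. The 16 tested let-7 forms ran from -0.30 to 0.41 with a median of 0.01. The miR-30 family (10 tested, median -0.01), the miR-15/16 family, known for slowing the cell cycle (9 tested, median 0.02), and the growth-promoting miR-17 to miR-92 clusters (17 tested, 8 above 0 and 9 below) also had medians close to 0. The last 2 differed in sign between the runs, with -0.18 and 0.18 for miR-15/16 and -0.16 and 0.12 for the miR-17 to miR-92 clusters in the first and second. Among 36 miRNAs known in lipid or glucose metabolism, 13 were above 0 and 23 below, with a median of -0.09, which was -0.15 in the first run and 0.012 in the second. miR-27b-3p and miR-378-3p, which regulate lipid genes and mitochondrial energy use, differed by -0.06 and 0.07. Of 16 miRNAs known in hypoxia, oxidative stress or the response to arsenic, 6 were above 0 and 10 below. Their median was -0.17 over all libraries, -0.0023 without WTM replicate 1, -0.12 in the first run and 0.13 in the second. The most abundant members of that list, miR-21-5p, miR-31-5p, miR-146a-5p and miR-199a-2-3p, lay at -0.44, 0.17, 0.23 and -0.39. miR-34a-5p, also of that list, lay at 1.28.

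Lists that mark other cell types were lower in HUMM in more of their members, and most of these medians depended on WTM replicate 1. The stromal list holds endothelial, smooth muscle and fibroblast miRNAs, miR-221, miR-222 and the miR-10 forms, which the Hox list below also counts. In it 15 of 19 were below 0, with a median of -0.32, and -0.11 without that library. Within the first run alone, which holds WTM replicate 1, the median was -0.77, and within the second 0.04. miR-143-3p of this list differed by -0.69 in all libraries and by -0.31 without WTM replicate 1, in which it stood at 145282 against 16267 to 37722 in the other WTM libraries. In the miR-200 and miR-183 families of epithelium 8 of 9 were below 0, with a median of -0.53, and 0.05 without it. Their median was -1.21 in the first run and 0.23 in the second. All 5 red cell miRNAs were below 0, with a median of -0.41, and -0.07 without it. The 2 tested striated muscle miRNAs, miR-1a-3p and miR-133a-3p, differed by -1.24 and -1.67, a median of -1.46, and -0.72 without it. The leukocyte list differed less, with 9 of 12 above 0 and a median of 0.05. In tissue RNA, fewer cells of a type and less RNA per cell cannot be told apart, and the part of cell makeup in these values was not tested.

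The imprinted Dlk1-Dio3 cluster, which is transcribed from the maternal allele as a long chain of miRNAs, had 20 tested members, 12 above 0 and 8 below, with a median of 0.18 (0.51 without WTM replicate 1). miR-127-3p, miR-541-5p, miR-379-5p and miR-411-5p, its most abundant members, differed by 0.24, 0.19, 0.20 and 0.20. Within the runs alone the median of the cluster was 0.21 and -0.14, so its sign was not the same in both. HUMM replicate 2 held the highest HUMM value of miR-541-5p (1376, the next being 617), miR-379-5p (951 and 524) and miR-411-5p (588 and 225). The 5 tested miRNAs of the Hox clusters were all below 0, with miR-10b-5p at -0.65 and miR-196a-2-5p at -0.33, but miR-10a-5p and miR-10a-3p at -0.016 and -0.0044. Their median was -0.29, with -0.081 in the first run and -0.43 in the second. Of the 4 tested miRNAs typical of pancreas, gut or brain, 0 were above 0, with a median of -0.58, and -0.047 without WTM replicate 1.

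**Figure D4:**
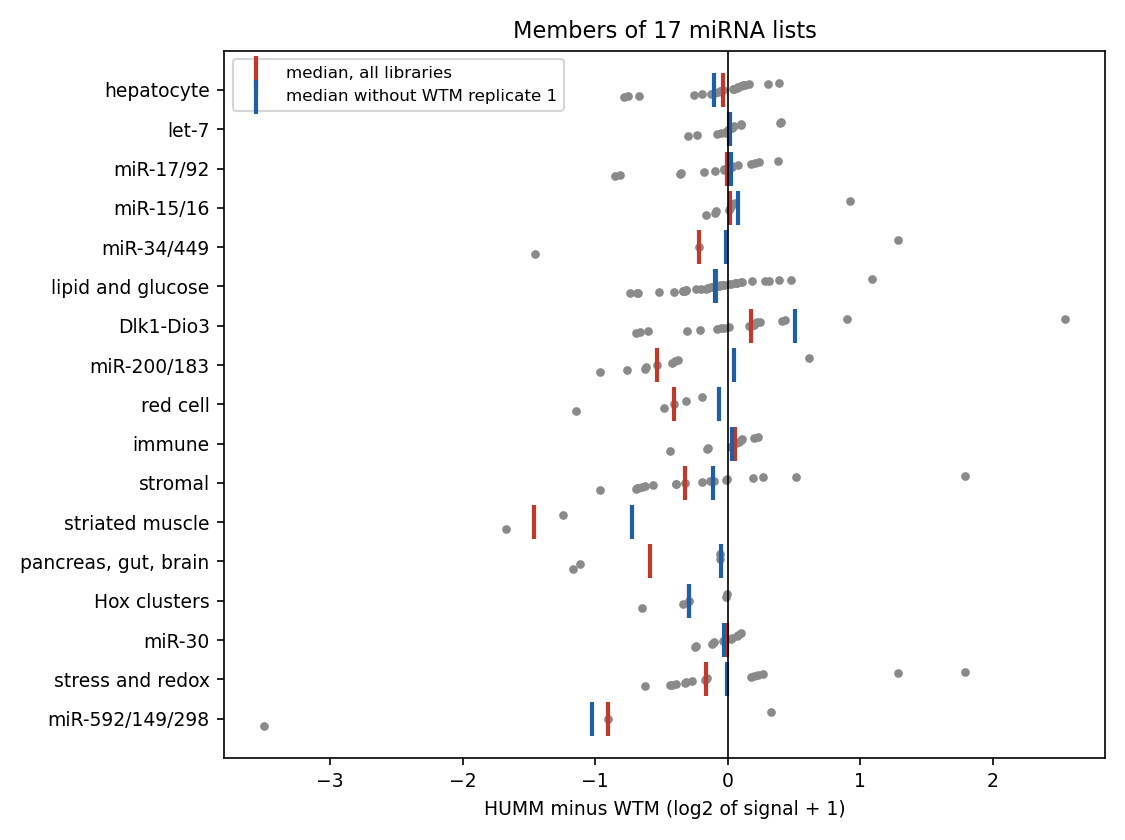
Each grey point is 1 tested member of a list, placed by its HUMM minus WTM difference in log2 of signal plus 1; red bars are list medians over all libraries and blue bars the medians without WTM replicate 1. The medians of striated muscle, of the miR-200 and miR-183 families and of red cells move from -1.46, -0.53 and -0.41 to -0.72, 0.05 and -0.07.

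Shifted starts were compared as the ratio of each shifted form to its annotated form, in the same model. Of 415 pairs, limma called 0 (0%) at an adjusted p under 0.05, with 22 (5.3%) at an unadjusted p under 0.05 and a smallest adjusted p of 0.458. The ratio was above 0 for 202 pairs and below for 213 in log2 difference. let-7e-5p_-_1 stood at 0.448% ± 0.045 (SD, n = 6) of let-7e-5p in HUMM and at 0.336% ± 0.041 (SD, n = 5) in WTM, a log2 difference of 0.41 (SE 0.11). Its lowest HUMM library (0.407%) was above its highest WTM library (0.384%), as in no other pair (0.241% of pairs tested). The shifted form's own signal overlapped, at 29.5 to 46.5 in HUMM and 26.3 to 38.1 in WTM. The annotated let-7e-5p, by which it is divided, differed by -0.30. miR-146a-5p_+_1, from a miRNA that dampens inflammatory signalling, was at 0.233% ± 0.065 (SD, n = 6) of its annotated form in HUMM and 0.361% ± 0.068 (SD, n = 5) in WTM, with HUMM at 0.153 to 0.297% and WTM at 0.302 to 0.471%. miR-151-5p_+_1 was at 0.547% ± 0.12 (SD, n = 6) and 0.789% ± 0.13 (SD, n = 5), with HUMM at 0.372 to 0.654% and WTM at 0.690 to 1.01%. These 2 were the pairs (0.482%) in which every HUMM library was below every WTM library. All 3 ratios had an adjusted p of 0.458 by limma, so that none passed. Over all features, shifted forms took 3.85% ± 0.27 (SD, n = 6) of the signal in HUMM and 3.604% ± 0.35 (SD, n = 5) in WTM. The difference of 0.249 percentage points gave p = 0.19 in a 2-sided exact permutation test, and 0.654 after adjustment over the 7 library measures compared.

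Whether the male difference differed from the female one was tested as genotype by sex. Limma called 0 of 837 features (0%), with 25 at an unadjusted p under 0.05 and a smallest adjusted p of 0.965. miR-34a-5p had the smallest p. Its HUMF libraries stood at 1832, 362, 1169, 1175 and 1001 and its WTF libraries at 1212, 2615, 2037, 2884 and 1823. All HUMF libraries but replicate 1 were below every WTF library, whereas HUMM replicates 3, 4 and 5 were above every WTM library. The male minus female genotype difference was 2.33 (SE 0.62, unadjusted p 0.00126, adjusted p 0.965 by limma). miR-298-5p had -4.06 (SE 1.26), with HUMF at 9.95 to 19.8 and WTF at 0 to 22.5, again near the floor. miR-22-5p, miR-221-3p and miR-137-3p had -0.46, 0.32 and 1.07, each with an adjusted p of 0.965 by limma.

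miR-592 and miR-149 were looked at because they separate the sexes in these livers. The shifted miR-592-5p_+_1, chosen after its values were seen, is far more abundant than miR-592-5p. It ran from 563 through 827 to 1030 in HUMM and stood at 732, 632, 2180, 1416 and 1963 in WTM. The 3 second-run WTM libraries were above every HUMM library, and both first-run WTM libraries lay within the HUMM range. The difference was -0.58 (interval -1.63 to 0.48, adjusted p 0.987 by limma), and was 0.071 within the first run and -1.04 within the second. miR-592-5p ran from 15.3 through 26.7 to 33.4 in HUMM and stood at 40.4, 28.9, 74.2, 53.6 and 47.6 in WTM, where 4 of 5 were above every HUMM library, and its difference was -0.91 (-2.28 to 0.47). In females it was listed at 0 in 9 of 10 libraries and at 13.3 in WTF replicate 2. miR-149-5p ran from 91.3 through 161 to 230 in HUMM and stood at 64.6, 282.7, 93.0, 91.7 and 174 in WTM, with overlap and a difference of 0.33 (-0.41 to 1.07). Against WTF, with which HUMM minus WTM shares the WTM libraries, WTM differed by 4.81, 4.31 and 2.08 for miR-592-5p, miR-592-5p_+_1 and miR-149-5p, with adjusted p of 0.000476, 9.68e-05 and 0.00519 by limma. These 3 were among 18 features (2.15%) called between the wild type sexes. They were chosen for separating the sexes in these same livers, so their p-values between the sexes are a description and no support.

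**Figure D5:**
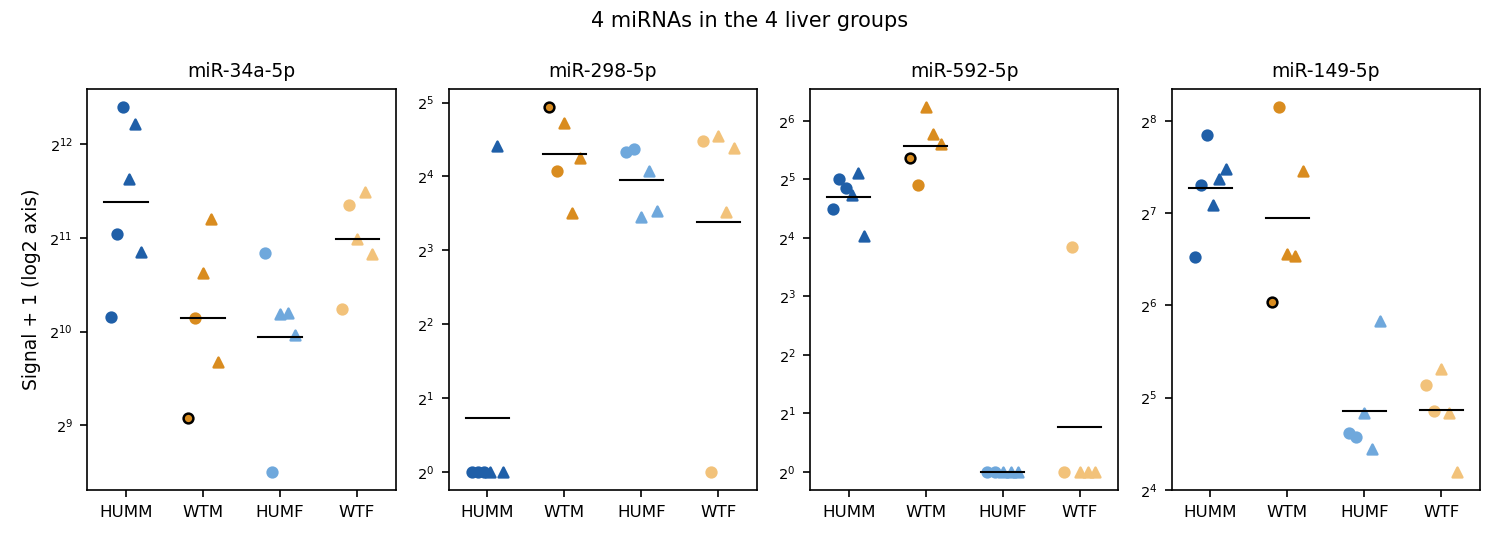
Normalized signal plus 1 (log2 axis) in the 21 liver libraries by group for 4 miRNAs; circles are first-run and triangles second-run libraries, lines are means on the log2 scale, and WTM replicate 1 is outlined in black. miR-592-5p is listed at 0 in 9 of 10 female libraries and above 0 in all 11 male ones, and miR-34a-5p overlaps between all groups.

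The same miRNAs in gonadal adipose tissue of 5 HUMM and 4 WTM were read side by side, without a test between tissues. The tags in the names of these adipose libraries recur in liver library names of the same group, though replicate numbers differ. The tissues therefore appear to share animals and are not independent. There limma called 8 of 1298 features (0.616%). miR-34a-5p stood at 30758 ± 6918 (SD, n = 5) in HUMM and 24041 ± 5178 (SD, n = 4) in WTM, a difference of 0.31 (adjusted p 0.728 by limma), where liver had 1.28. miR-298-5p, near the floor in liver, was listed in all 9 adipose libraries at 268 to 2531, with a difference of -0.23 (adjusted p 0.922 by limma), which ran from -0.83 to 0.24 when 1 library was left out. miR-431-5p differed by 0.45 and miR-215-5p by -0.88, and neither passed. miR-122-5p in adipose tissue stood at 46774 to 123944 in HUMM and 133717 to 683904 in WTM, which do not overlap (as for 2.31% of adipose features with HUMM lower), with a difference of -1.79 (SE 0.43) and an adjusted p of 0.0522 by limma, where liver had -0.13. That adjusted p was 0.042 with a pseudocount of 10, and with 1 adipose library left out it ran from 0.0338 (without WTM replicate 12) to 0.183 (without WTM replicate 6). The difference was -1.24 without WTM replicate 11, the highest library, which carries the same tag as liver WTM replicate 1. Some other hepatocyte miRNAs were also lower in HUMM adipose tissue, but not all. miR-122-3p and miR-192-5p differed by -1.43 and -1.17 and were not called. miR-22-3p, miR-30a-5p and miR-22-5p of the hepatocyte list lay at -0.14, -0.05 and 0.11. Their mean signals in HUMM adipose tissue were 589222.5, 724360.5 and 3813.7, against 353405, 254558 and 2095 over the 21 liver libraries. They therefore do not mark hepatocytes alone. For miR-122-5p and miR-192-5p these means were 76051 and 20312 in HUMM adipose tissue, against 5336654 and 716202 in liver. Of the red cell miRNAs, miR-486-5p differed by -1.66 and was called (adjusted p 0.0487 by limma), and miR-451, miR-144-3p and miR-144-5p differed by -1.46, -1.23 and -1.14 and were not. The part of blood or of other cells in the adipose value of miR-122-5p was not tested.

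Genes that hold a miRNA on the same strand give another readout of its locus. Of 112 such host genes tested in liver mRNA of 3 HUMM and 3 WTM males, limma called 0, in a table where 5 of 15180 genes (0.0329%) were called. At an unadjusted p under 0.05 there were 9 hosts (8.04%), close to the share of 1083 (7.13%) over all genes tested. Grm8, the glutamate receptor gene that holds miR-592, stood at 188, 178 and 95.3 in HUMM and 156, 200 and 242 in WTM. The difference was -0.54 (SE 0.76, adjusted p 0.901 by limma), with the preparation as a covariate. By label, the libraries at 188 and 178 in HUMM and 156 in WTM were ribosomal RNA-depleted, and the others polyA. HUMM lay above WTM in the former and below it in the latter. Values of Vmp1 are in the same order of libraries. Vmp1, an autophagy gene whose locus holds miR-21, stood at 4570, 6589 and 5970 in HUMM and 9854, 6894 and 5581 in WTM, a difference of -0.36 (SE 0.24, adjusted p 0.781 by limma). Huwe1, a ubiquitin ligase gene that holds let-7f-2, differed by -0.17 (SE 0.14). Cdc20b, the host of miR-449a, was listed at 0 in all 6 libraries.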

How the data were processed

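Liver small RNA libraries were made with the TriLink CleanTag kit, per the labels' protocols. The table analysed holds signal that the authors deposited as DESeq-normalized, per the file's name. The submitters' processing notes list DESeq2, STAR, Salmon, limma and mm9, with no version or role. The authors' second table, deposited on a log2-like rlog scale after batch correction, served as an alternative. Each signal column was whole multiples of 1 step to within 2.8e-05, the lowest listed value being 10 steps. Listed reads assume that 1 step is 1 read, which no source used here states, and no count test was run.

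Under R 4.3.3, limma 3.58.1 with a mean-variance trend in its moderated variances and 95% intervals was fitted to log2 of the signal plus 1 over 4 liver groups and 21 libraries with the run as a covariate, for features with a mean of at least 10. Adipose small RNA and liver mRNA were fitted likewise, the latter with the labelled preparation. The fit was tested on simulated data.

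Members, lists and rules were chosen with earlier results of these data known. Named features were the 5 smallest p in each direction, the 10 most abundant forms, miR-122, miR-34a, up to 4 members of each list, and the 5 smallest p of the genotype by sex and ratio tests. miR-30d-3p and miR-592-5p_+_1 were added after their values were seen, as were miR-1a-1-3p and the annotated let-7i-5p. The table's miR-1a was added to the striated muscle markers. Of 750 annotated names, 599 matched a RefSeq miRNA gene (GRCm38.p6), used for names, hosts and sequences only, with no coordinates. Alternatives covered the pseudocount, filter, run term, scaling, replicate block and single libraries.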

Additional observations from a re-analysis of the deposited data

Results flagged for a closer look

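Of 176 groups of values examined for a library far from the rest of its group, 28 held one, where 1 in 20 would be 8.8. The groups share libraries, and the summed markers hold several of the named miRNAs. These counts are therefore no test of an excess over chance. WTM replicate 1 accounted for 11: miR-145-3p (1181, the next 630), miR-215-5p (1975), miR-200a-3p (12724), miR-143-3p (145282), miR-1a-2-3p (2322), miR-133a-1-3p (243), miR-199a-2-3p (20674), and its summed smooth muscle (158483), fibroblast and stellate (42317), striated muscle (2580) and epithelial (18154) markers. HUMM replicate 2 was the highest of its group for miR-431-5p (53.96), miR-541-5p (1376), miR-379-5p (951) and miR-411-5p (588), all of the Dlk1-Dio3 cluster, and for let-7i-5p_+_3 (16.02). HUMM replicate 1 was the highest for miR-192-5p (930195), miR-122-3p (8037) and let-7e-5p_-_1 (46.5), and HUMM replicate 6 for miR-146a-5p (44034) and its shifted form miR-146a-5p_+_1 (129). HUMM replicate 5 was the highest for miR-298-5p (20.3) and miR-1a-2-3p (422). WTM replicate 5 was the highest for miR-146a-5p_+_1 (85.4) and WTM replicate 3 for let-7f-1-5p (317475). The lowest of their groups were HUMM replicate 3 for miR-30d-3p (176), HUMM replicate 4 for the share of signal in miR-122-5p (42.1%) and WTM replicate 4 for miR-449a-5p (18.2).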

How the results depend on the processing

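The count of features called was 0 in 21 of the 22 alternatives run for HUMM against WTM and 1 in the other, without HUMM replicate 5, so that leaving out 1 library gave 0 to 1. The feature was miR-298-5p, at -4.25 (adjusted p 0.0217 by limma). At an unadjusted p under 0.05 the alternatives gave 17 to 66 features among those tested. Genotype by sex and the ratios gave 0 calls in every alternative run. The share of shifted forms differed by 0.169 to 0.378 percentage points when 1 library was left out, 0.377 and 0.186 within the first and second runs, and 0.358 without miR-122, and no such difference passed. Signs turned for miR-122-5p (0.083, first run alone), miR-122-3p (-0.12, second run alone, and -0.043 to 0.23 with 1 library left out, the lowest without HUMM replicate 1) and miR-592-5p_+_1 (0.071, first run alone), and the cause was not tested. In adipose tissue, miR-122-5p was called with a pseudocount of 10 (-1.79, adjusted p 0.042 by limma) and without WTM replicate 12 (-1.98). Leaving out 1 adipose library in turn, chosen after seeing the data, turned the sign of others that were not called: miR-137-3p ran from -2.59 to 0.17, miR-674-5p from -0.13 to 0.060, miR-298-5p from -0.83 to 0.24, let-7f-2-5p_+_2 from -0.26 to 0.26 and miR-145-3p from -0.10 to 0.18. The 54 features given as values with no test, which are abundant forms and list members, had the other sign in 134 of 1183 alternative values. Same-numbered HUMM and WTM libraries correlated at over 0.1 in 0 of 5 pairs and 0 correlated best with their own number, so the numbers do not pair them, and a replicate block gave 0 calls with 30 features at an unadjusted p under 0.05. The planned edgeR and DESeq2 fits on recovered reads were not run, because the signal could not be taken as recovered whole reads. Values under the lowest listed value of a library, taken as 10 reads, are not known, and fitted sizes near it move with the pseudocount.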
